A study of Mus musculus with 16 samples.

Results

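The AP-1 and immediate early genes, part of the fast transcriptional response to growth factors, were followed through 10 genes: Fos, Fosb, Fosl1 and Fosl2, Jun, Junb and Jund, Egr1, and Ier2 and Ier3. The selection is by name, as every probe set whose only gene symbol is 1 of these 10, and the names were chosen with earlier results of these data known. All 10 genes were found, on 14 probe sets, among 18193 genes on 34945 probe sets with a single symbol. Each gene is given by its brightest probe set, and the second probe set of the 4 genes that have another (Fosl1, Fosl2, Jun and Jund) is given where it bears on a result.

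Immediate early genes are transcribed within minutes of a signal, without new protein synthesis, because the factors that switch them on are already present and wait for phosphorylation. The Ras, Raf, MEK and ERK cascade reaches them through serum response factor and its Ets partners, and the JNK branch reaches them through Jun and ATF2. Proteins of the Fos and Jun families pair to form AP-1, a dimeric transcription factor that binds a short DNA element, while Egr1 is a zinc finger factor with a GC-rich site. In liver, these genes are known for their brief rise after partial hepatectomy, tissue injury and feeding signals, and Jun is needed for normal hepatocyte proliferation and for chemically induced liver tumours in mice.

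The study measured liver tumours of male C3H/HeJ mice, a strain prone to liver tumours, with 16 Affymetrix arrays that read RNA from its 3′ end. Per the series' design text, the mice received a single injection of the liver carcinogen diethylnitrosamine, at 2 or 6 weeks old and at a dose of 10 or 90 µg per g, so that tumours and non-tumour liver come from carcinogen-treated animals. After 2 weeks without treatment they were given a diet with 0.05% phenobarbital, a tumour promoter that favours Ctnnb1-mutated tumours, or a diet without it, for 28 to 36 weeks. The comparisons ask how tumours with an activated Ha-ras oncogene and tumours with activated β-catenin (Ctnnb1) differ from non-tumour liver of the same treatment. The groups are 7 Ctnnb1-mutated tumours with phenobarbital, 3 non-tumour livers with phenobarbital (numbered 4, 5 and 6 in the labels), 3 Ha-ras-mutated tumours without phenobarbital and 3 non-tumour livers without it.

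The sources leave limits on these groups as a model. The sample labels give the treatment as 27 weeks of drinking water with or without phenobarbital, and their protocol text speaks of 28 days and of mice 29 to 32 days old, which differs from the design text. Carcinogen dose and age are not given per sample. The labels do not say which tumours came from separate animals or how mutations were called, so p-values measure only the spread between these samples. Both tumour groups also differ in phenobarbital, so mutation and treatment cannot be told apart between them. The transcript of the mutated Ras gene was not analysed here.

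Array medians over all probe sets lay between 5.03 and 5.1 on the log2 scale, and the median gene had a mean level of 6.19. The number of arrays limits the precision. The labelled tissue fitted its markers: 6 of 6 measured hepatocyte markers lay above the median gene, and their mean level was 14.52 to 14.76 in the 16 arrays. Phenobarbital control 6 stood apart in a measure of RNA quality: its Gapdh signal was higher at the 3′ than at the 5′ end of the transcript by a log2 value of 2.7, against −0.15 to 0.32 in the other arrays. That array was above its group mean for 9 of the 10 genes, the exception being Jun, and the part of RNA quality in its values was not tested. Results that rest on the phenobarbital controls were refitted without it. Values from that fit are given for a selection of the results whose call, direction or size changed, not for each of them. Counts from that fit are given without the shares of all genes.

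In Ha-ras tumours, 6 of the 10 genes rose against untreated non-tumour liver, none fell, and the median log2 difference of the 10 was 1.0. Egr1, Fos, Ier3, Junb, Fosl2 and Ier2 passed the limma test, with an adjusted p under 0.05 after Benjamini-Hochberg correction over the whole table, by 1.76-fold to 14.7-fold. Among all 18193 genes, 7.21% rose in this comparison and the median log2 difference was −0.04. In Ctnnb1 tumours against phenobarbital controls, 1 of the 10 genes rose, Egr1, none fell in limma (1, Ier2, was lower at an unadjusted p under 0.05), and the median was 0.09, where 6.07% of all genes rose and their median was −0.03. Since a count in each comparison does not show a difference between them, the difference of both effects was tested gene by gene as an interaction.

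**Figure D1:**
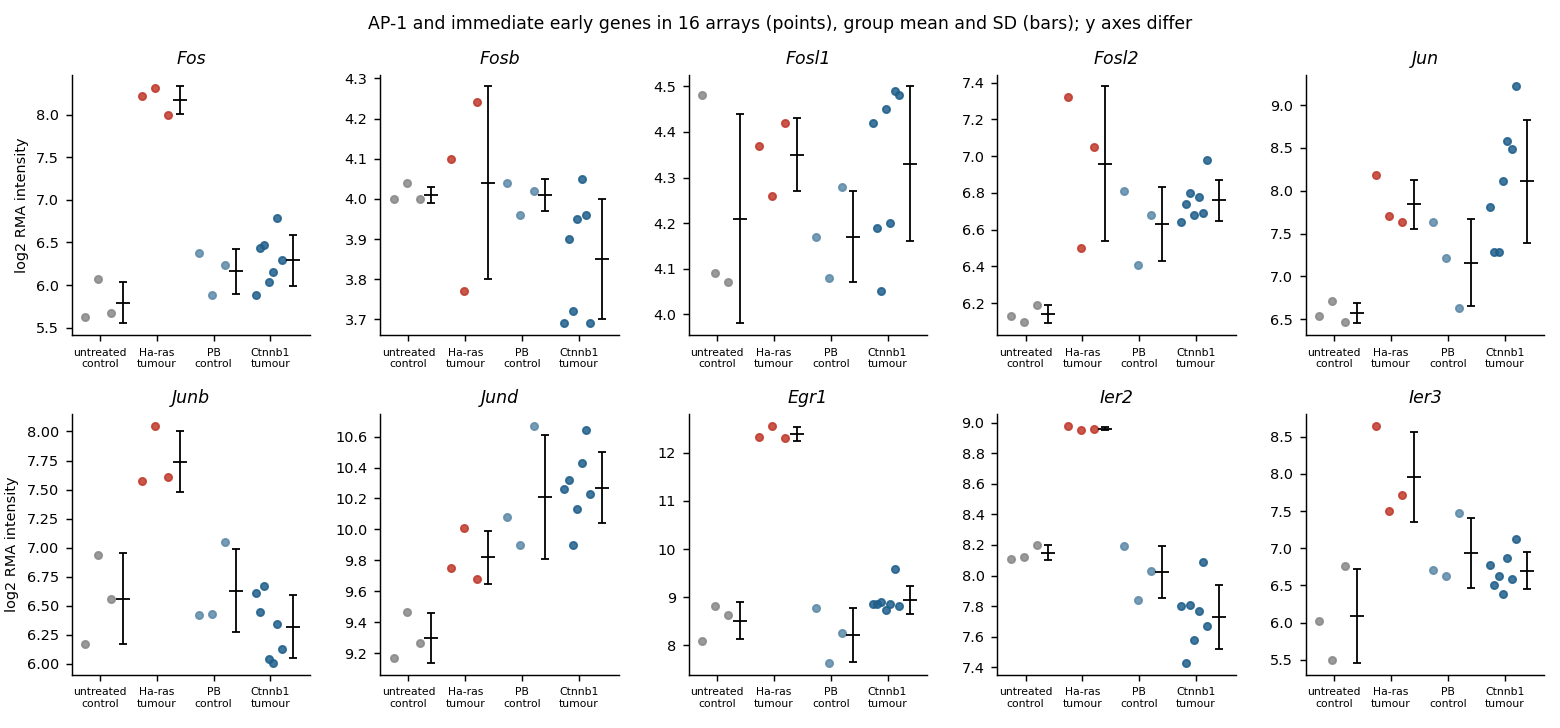
Log2 RMA intensity of each gene (y axis, own scale per panel) in the 16 arrays by group (x axis; PB, phenobarbital), with points for arrays and bars for the group mean and SD. The 3 Ha-ras tumours sit above all other arrays for Fos, Junb, Egr1, Ier2 and Ier3, while for Jun and Jund the Ctnnb1 tumours have the highest mean.

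Fos, the founding member of the Fos family and a partner of the Jun proteins, was at 5.63, 6.07 and 5.67 in the untreated controls. In the Ha-ras tumours it was at 8.22, 8.31 and 7.99. Each Ha-ras tumour was above each control, and the difference was 2.38 ± 0.21 (SE) on the log2 scale, 5.22-fold (adjusted p = 1.77e-06, limma). In the phenobarbital controls 4, 5 and 6, Fos was at 6.38, 5.88 and 6.24, and in the 7 Ctnnb1 tumours it ran from 5.88 to 6.79 with a median of 6.29. These groups overlapped, and the log2 difference of 0.13 had a 95% interval from −0.24 to 0.50 (adjusted p = 0.695, limma). The effect in Ctnnb1 tumours was lower than that in Ha-ras tumours by a log2 difference of −2.26 ± 0.27 (adjusted p = 0.000103, limma interaction).

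The promoters of Fos, Junb and Jun are shown because Fos and Junb rose in Ha-ras tumours while Jun varied among the Ctnnb1 tumours, and because their windows hold the short elements described next. The sequences are the 250 bases before the annotated start, from RefSeq on build GRCm38.p6, on the gene's strand, 5′ to 3′. They lie at chr12:85473640-85473889 on the plus strand for Fos, chr8:84978749-84978998 on the minus strand for Junb and chr4:95052223-95052472 on the minus strand for Jun. Capitals mark TGACG, the first letters of the cAMP response element TGACGTCA, in Fos and Junb, TATAAA in Fos, and TGACATCA in Jun.
Fos: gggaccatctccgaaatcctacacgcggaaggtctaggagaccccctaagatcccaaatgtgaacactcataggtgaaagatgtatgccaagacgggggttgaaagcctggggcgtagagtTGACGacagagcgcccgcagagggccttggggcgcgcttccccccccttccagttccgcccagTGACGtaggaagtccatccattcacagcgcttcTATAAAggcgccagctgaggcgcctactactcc
Junb: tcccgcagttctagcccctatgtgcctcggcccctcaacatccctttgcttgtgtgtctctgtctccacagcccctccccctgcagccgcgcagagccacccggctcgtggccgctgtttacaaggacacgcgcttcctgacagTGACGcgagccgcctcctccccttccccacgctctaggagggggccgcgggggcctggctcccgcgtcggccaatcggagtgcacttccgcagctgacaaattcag
Jun: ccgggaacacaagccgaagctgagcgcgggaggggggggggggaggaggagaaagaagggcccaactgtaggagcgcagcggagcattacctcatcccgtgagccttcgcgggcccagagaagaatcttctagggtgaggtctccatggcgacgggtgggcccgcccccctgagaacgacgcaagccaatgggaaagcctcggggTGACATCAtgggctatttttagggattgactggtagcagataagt

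Windows of 250 bases before to 50 after the start were available for 7 of the 10 genes (Fos, Fosb, Fosl2, Jun, Junb, Jund and Ier3), and windows of the same length for all annotated starts gave the background. TGACG, searched on both strands, was in 3 of the 7 windows, at 129 and 66 bases before the start of Fos, 106 before that of Junb and 60 before that of Fosb, and it was in 20.8% of all 32851 windows. TGACATCA stood 45 bases before the start of Jun and was in 3.62% of all windows. TATAAA, searched on the gene's strand, was in 2 of the 7 windows, 33 bases before the start of Fos and at the annotated start of Junb, just past the bases printed, and 8.32% of all windows held it. None of the 7 windows held the CArG box, TGACGTCA, TGACTCA (the AP-1 site) or GCGTGGGCG (the Egr1 site) on either strand, and these were in 1.63%, 1.79%, 5.2% and 0.612% of all windows. TGACG overlaps TGACGTCA. A match describes letters in a window and is no measurement of binding, and these windows leave out any element farther upstream.

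The other Fos family genes behaved differently from Fos. Fosl2, which encodes Fra-2, was at 6.13, 6.1 and 6.19 in the untreated controls and at 7.32, 6.5 and 7.05 in the Ha-ras tumours. The tumours were all above the controls, and the difference was 0.82 ± 0.17, 1.76-fold (adjusted p = 0.00311, limma). The second probe set of Fosl2 went the other way, with 5.91, 6.01 and 6.25 in the untreated controls and 5.76, 5.8 and 5.55 in the Ha-ras tumours (log2 difference −0.35 ± 0.15, adjusted p = 0.169, limma). The probe sets of Fosl2 thus disagreed in direction, and its rise rests on the brighter of them. In the Ctnnb1 comparison Fosl2 overlapped between the groups, from 6.64 to 6.98 in the tumours against 6.81, 6.41 and 6.68 in phenobarbital controls 4, 5 and 6. The interaction of Fosl2 was −0.70 and did not pass (adjusted p = 0.0777, limma), although without Ha-ras tumour 2, the lowest of the group, it was −0.93 (adjusted p = 0.00616, limma). In the fit without phenobarbital control 6 it was −0.68 (adjusted p = 0.127, limma).

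Fosb and Fosl1, which encodes Fra-1, are Fos proteins that respond to sustained growth factor signals in other cells. Fosb ran from 3.69 to 4.24 over all 16 arrays, below the median of every array, and its log2 differences were 0.02 in Ha-ras tumours and −0.16 in Ctnnb1 tumours. Fosl1 ran from 4.05 to 4.49, also below every array's median, with differences of 0.14 and 0.15. Neither gene passed in any of the 5 comparisons, and at these levels a difference may lie below what the probe sets can show. The second probe set of Fosl1 was as dim, from 3.76 to 4.68.

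Jun, the AP-1 partner that JNK phosphorylates, was at 6.54, 6.71 and 6.47 in the untreated controls and at 8.18, 7.71 and 7.64 in the Ha-ras tumours. Every Ha-ras tumour was above every untreated control, but the difference of 1.27 ± 0.41 missed the threshold (adjusted p = 0.0504, limma). The second Jun probe set gave 1.12 ± 0.32 and passed (adjusted p = 0.0367, limma). Over 29 alternative settings and left-out arrays, Jun passed in 13, with adjusted p from 0.00263 to 0.168 (limma).

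Of the 10 genes, Jun varied most among the Ctnnb1 tumours. Tumours 1 to 7 had 7.81, 7.28, 7.28, 8.12, 8.58, 8.49 and 9.22, an SD of 0.72, and 2.34% of all genes had a larger SD in this group. The second probe set gave 7.77, 7.13, 6.93, 7.78, 7.98, 7.89 and 8.71 in the same tumours, so that tumour 7 was highest and tumours 2 and 3 lowest on both. Phenobarbital controls 4, 5 and 6 had 7.64, 7.22 and 6.63 on the brighter probe set, and tumours 2 and 3 lay within their range. The log2 difference of 0.95 ± 0.35 did not pass (adjusted p = 0.0869, limma), and it was 0.68 ± 0.39 without phenobarbital control 6 (adjusted p = 0.356, limma) and 1.08 without tumour 2 or 1.09 without tumour 3 (adjusted p = 0.0454 for each, limma). The second probe set had 7.22, 7.11 and 7.1 in phenobarbital controls 4, 5 and 6. Its difference was 0.60 ± 0.27 and did not pass (adjusted p = 0.185, limma). Unlike for Fos, the Jun effects of both tumour types were not shown to differ: the interaction was −0.33 ± 0.53, with a 95% interval from −1.46 to 0.81 (adjusted p = 0.814, limma). In the order of group means, Jun was lowest in untreated controls (6.57), then in phenobarbital controls (7.16), Ha-ras tumours (7.84) and Ctnnb1 tumours (8.11), and neighbours in that order overlapped, except that the highest phenobarbital control and the lowest Ha-ras tumour met at 7.64.

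**Figure D2:**
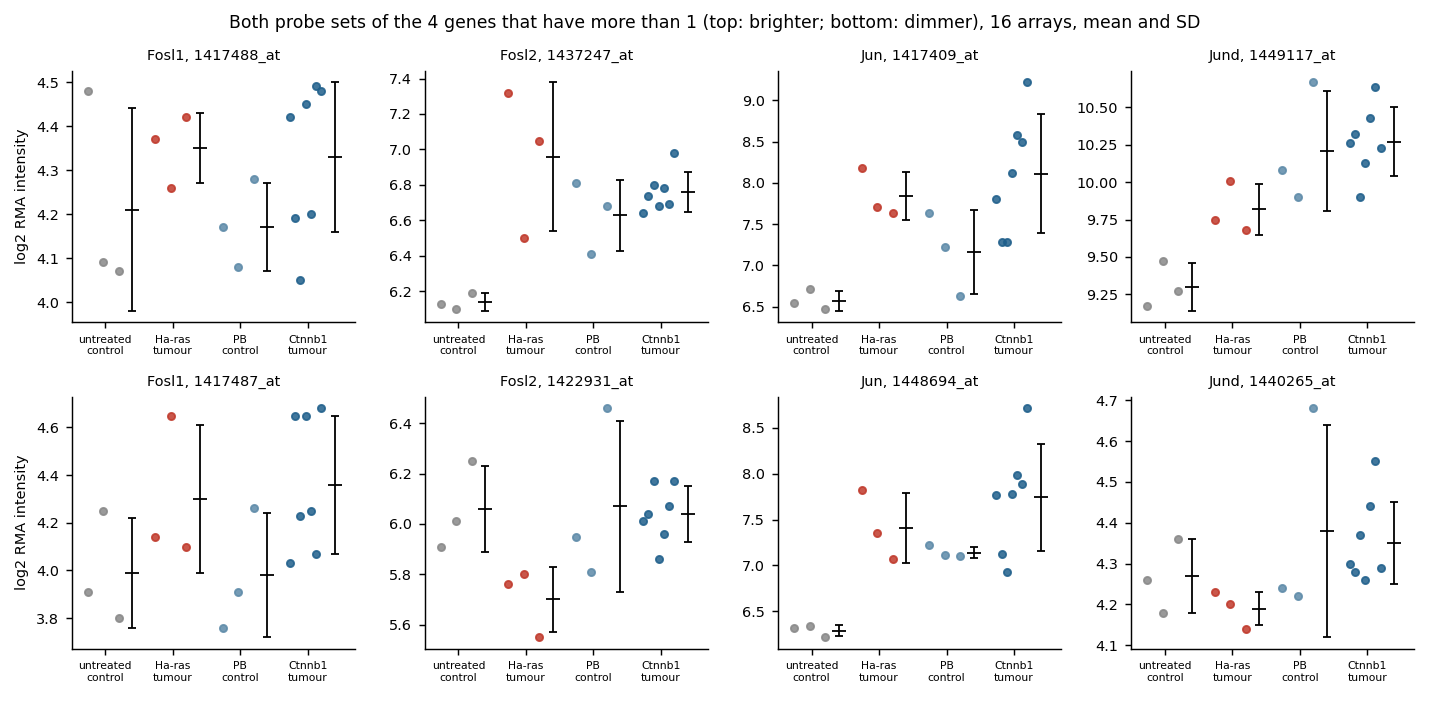
Log2 RMA intensity (y axis, own scale per panel) of both probe sets of Fosl1, Fosl2, Jun and Jund, the brighter on top, in the 16 arrays by group (x axis), with group mean and SD. Ctnnb1 tumour 7 is highest on both Jun probe sets, while for Fosl2 the Ha-ras tumours are above the untreated controls on the brighter probe set and below them on the dimmer.

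Junb, a Jun family member that can restrain Jun and is a direct immediate early target, was at 6.17, 6.94 and 6.56 in the untreated controls. It was at 7.57, 8.05 and 7.61 in the Ha-ras tumours, a rise of 1.18 ± 0.23 or 2.27-fold with no overlap (adjusted p = 0.0025, limma). In the Ctnnb1 comparison it ran the other way without passing, from 6.01 to 6.67 in the tumours against 6.42, 6.43 and 7.05 in phenobarbital controls 4, 5 and 6 (−0.31 ± 0.20, adjusted p = 0.338, limma). Without phenobarbital control 6, the highest of these, that value was −0.10. The interaction of Junb was −1.50 ± 0.30 (adjusted p = 0.0076, limma), and without that array it was −1.29 (adjusted p = 0.0209, limma).

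Jund, the Jun protein most associated with resting cells, followed a different order. It was at 9.17, 9.47 and 9.27 in the untreated controls, below all other arrays, and at 9.75, 10.01 and 9.68 in the Ha-ras tumours. Phenobarbital controls 4, 5 and 6 had 10.08, 9.9 and 10.67, and the Ctnnb1 tumours ran from 9.9 to 10.64 with a median of 10.26. The difference in Ha-ras tumours was 0.52 ± 0.19 and did not pass (adjusted p = 0.097, limma). Phenobarbital control 6 is in neither of these groups, so leaving it out changed only the spread shared by all groups. The difference was then 0.52 ± 0.16 (adjusted p = 0.0388, limma). The phenobarbital groups overlapped, with a log2 difference of 0.06, and without phenobarbital control 6 it was 0.29 (adjusted p = 0.327, limma). The second Jund probe set lay between 4.14 and 4.68 in all arrays, under the array medians, and showed no change that passed.

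Egr1, a zinc finger factor of the ERK response, had the largest difference of the 10 genes. It was at 8.09, 8.82 and 8.63 in the untreated controls and at 12.32, 12.56 and 12.3 in the Ha-ras tumours, with no overlap. The difference was 3.88 ± 0.26, 14.7-fold (adjusted p = 1.2e-07, limma). Phenobarbital controls 4, 5 and 6 had 8.77, 7.64 and 8.25, and Ctnnb1 tumours 1 to 7 had 8.86, 8.85, 8.9, 8.73, 8.86, 9.58 and 8.82. Tumour 4 lay just below the highest control, and the others lay above all controls. The rise in Ctnnb1 tumours was 0.72 ± 0.22, 1.65-fold (adjusted p = 0.042, limma), and it did not hold up well: without phenobarbital control 6 it was 0.74 (adjusted p = 0.11), without phenobarbital control 5, the lowest array, 0.44 (adjusted p = 0.21), and without tumour 6, the highest, 0.62 (adjusted p = 0.0539, limma). Over the 16 fits that each left out 1 array, the call was kept in 6. The interaction of Egr1 was −3.16 ± 0.34 (adjusted p = 4.09e-05, limma).

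Ier2, a small nuclear protein induced by serum, had little spread within the untreated and Ha-ras groups. It was at 8.11, 8.12 and 8.2 in the untreated controls and at 8.98, 8.95 and 8.96 in the Ha-ras tumours, a rise of 0.82 ± 0.14 or 1.76-fold with no overlap (adjusted p = 0.00083, limma). In the Ctnnb1 tumours it ran from 7.43 to 8.09 with a mean of 7.73, against 8.19, 7.84 and 8.03 in phenobarbital controls 4, 5 and 6. The difference of −0.29 ± 0.12 did not pass (adjusted p = 0.123, limma), and it was −0.35 without tumour 6 (adjusted p = 0.042, limma). The interaction was −1.11 ± 0.18 (adjusted p = 0.00163, limma).

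Ier3, also called IEX-1, is an early gene of ERK and NF-κB signals that modulates cell survival. It was at 6.02, 5.5 and 6.76 in the untreated controls and at 8.65, 7.5 and 7.72 in the Ha-ras tumours. The groups did not overlap although both were wide, and the rise was 1.87 ± 0.33, 3.65-fold (adjusted p = 0.00104, limma). Phenobarbital controls 4, 5 and 6 had 6.71, 6.63 and 7.48, and the Ctnnb1 tumours ran from 6.38 to 7.13, within or near that range. The log2 difference was −0.25 and did not pass, and without phenobarbital control 6, the highest of the controls, it was 0.02. The interaction was −2.11 ± 0.43 (adjusted p = 0.00726, limma), and without phenobarbital control 6 it was −1.84 (adjusted p = 0.0218, limma).

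Counted over the list, the ranges of Ha-ras tumours and untreated controls did not overlap for 8 of the 10 genes, all higher in the tumours, where 16.3% of all genes had tumours higher without overlap. The exceptions were Fosb and Fosl1. Ctnnb1 tumours and phenobarbital controls overlapped for all 10 genes, where 5.96% of all genes had tumours higher and 6.64% lower without overlap. In the interaction, 5 of 10 genes had a lower effect in Ctnnb1 tumours (Egr1, Fos, Ier3, Junb and Ier2), none a higher effect, and the median was −0.90, where 3.29% of all genes passed in the lower direction and the median was 0.01. Without phenobarbital control 6 the 5 interactions were −3.14, −2.22, −1.84, −1.29 and −1.10 in the same order, and all passed. Each of these 5 interactions, and each of the 6 rises in Ha-ras tumours, passed in all 16 fits that left out 1 array. For Fosl2 this holds for the brighter probe set only, as the other went the other way (−0.35).

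**Figure D3:**
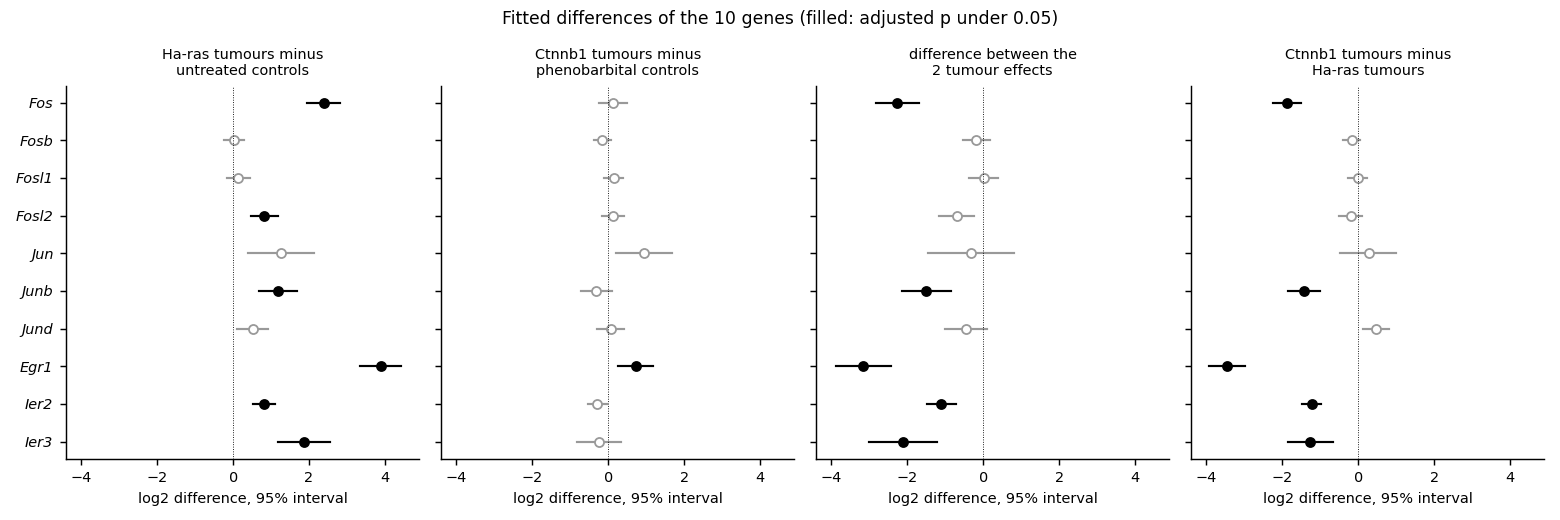
Fitted log2 differences (x axis) of the 10 genes (y axis) with 95% intervals in 4 comparisons, filled where the limma adjusted p is under 0.05. Egr1 at 3.88 and Fos at 2.38 lead the Ha-ras panel, and the Ctnnb1 panel has 1 filled point, Egr1 at 0.72.

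Phenobarbital alone left these genes with 0 calls. Against untreated controls, 0 of 10 genes passed in limma, where 0.214% of all genes did, and 3 had an unadjusted p under 0.05: Jund (0.91 ± 0.19, adjusted p = 0.0627), Ier3 (0.85 ± 0.33, adjusted p = 0.267) and Fosl2 (0.50 ± 0.17, adjusted p = 0.213). For Jund and Fosl2 the phenobarbital controls were all above the untreated ones, 2 of 10 genes where 9.40% of all genes did so. This rests on the brighter probe sets, as the second gave 0.11 for Jund and 0.02 for Fosl2. The second Jun probe set gave 0.85 ± 0.32 and did not pass (adjusted p = 0.272, limma). On it the phenobarbital controls, at 7.1 to 7.22, were all above the untreated ones, at 6.22 to 6.34. On the brighter probe sets without phenobarbital control 6, the Jund difference was 0.69 (adjusted p = 0.153, limma), that of Ier3 0.58 and that of Fosl2 0.47. Without phenobarbital control 5 the Jund difference was 1.07 (adjusted p = 0.0415, limma).

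Set directly against each other, Ctnnb1 tumours were lower than Ha-ras tumours for 5 of 10 genes, where 7.90% of all genes were. Egr1 was lower by a log2 difference of −3.45 ± 0.22 (adjusted p = 2.61e-08, limma) and Fos by −1.88 ± 0.17 (adjusted p = 1.68e-06, limma). Junb (−1.42), Ier3 (−1.26) and Ier2 (−1.23) were lower as well. The same 5 genes had no overlap between the tumour groups, where 8.57% of all genes had Ctnnb1 tumours lower without overlap. The Ier3 call was lost without Ha-ras tumour 1, the highest of its group (−0.91, adjusted p = 0.0536, limma). Jun (0.27 ± 0.35, adjusted p = 0.703) and Jund (0.46 ± 0.16, adjusted p = 0.0772) had higher means in the Ctnnb1 tumours and did not pass in limma. Jund gained the call in 5 of 28 alternatives. Among them was the fit without phenobarbital control 6, an array in neither tumour group (0.46, adjusted p = 0.0285, limma). This comparison uses the same tumour arrays as those above and adds no independent samples.

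Of 42 other immediate early genes, 8 rose in Ha-ras tumours, where 7.21% of all genes rose, and none fell, where 6.33% of all genes fell. At an unadjusted p under 0.05, 1 of the 42 was lower in limma, and the median log2 difference was 0.16. The largest were Btg2, an antiproliferative gene that p53 also induces (3.25 ± 0.30), Dusp5, a nuclear phosphatase of ERK (1.85 ± 0.22), Maff, a small Maf protein (1.64 ± 0.44), and Klf4, a Krüppel-like zinc finger factor (1.57 ± 0.37). Btg2 was at 10.81 ± 0.45 (SD) in the 3 Ha-ras tumours against 7.56 ± 0.09 in the 3 untreated controls, and at 8.1 ± 0.44 in the 7 Ctnnb1 tumours against 7.56 ± 0.46 in the 3 phenobarbital controls. In Ctnnb1 tumours 3 of the 42 rose and 1 fell, with a median of −0.02, shares near or below the 6.07% and 5.97% of all genes. Myc rose (1.64 ± 0.35), as did Klf6 (0.87 ± 0.22) and Mcl1, an antiapoptotic Bcl-2 relative (0.53 ± 0.13), and Klf10, a TGF-β-inducible zinc finger factor, fell by 1.37 on the log2 scale. Klf6 also rose in Ha-ras tumours (1.35 ± 0.26, adjusted p = 0.00255, limma), and its interaction of −0.48 did not pass. Without phenobarbital control 6, Myc was at 1.38 (adjusted p = 0.0497, limma), and Klf10, Klf6 and Mcl1 passed as well. In that fit, 8 of the 42 rose and 1 fell in Ha-ras tumours, and 3 rose and 2 fell in Ctnnb1 tumours.

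Klf10 was at 5.91 ± 0.40 in Ctnnb1 tumours, 7.29 ± 0.40 in phenobarbital controls, 8.75 ± 0.19 in Ha-ras tumours and 8.06 ± 0.31 in untreated controls. Its interaction of −2.06 passed, as did those of Btg2 (−2.70) and Dusp5 (−1.82), which makes 3 of 42 genes lower and none higher. Of all genes, 3.29% passed as lower in the interaction, and 389 of 18193 passed as higher. Without phenobarbital control 6, 4 of the 42 interactions passed as lower and 1 as higher. In the main fit, 1 was higher at an unadjusted p under 0.05 in limma. With phenobarbital alone, 0 of the 42 passed in limma, and at an unadjusted p under 0.05, 9 were higher and 3 lower. Between the tumour types, 8 of the 42 were lower and 2 higher in Ctnnb1 tumours, where 7.90% and 7.21% of all genes were, with Klf10 (−2.83) and Btg2 (−2.71) the furthest below and Gadd45b, a stress-response gene (1.43), the furthest above.

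**Figure D4:**
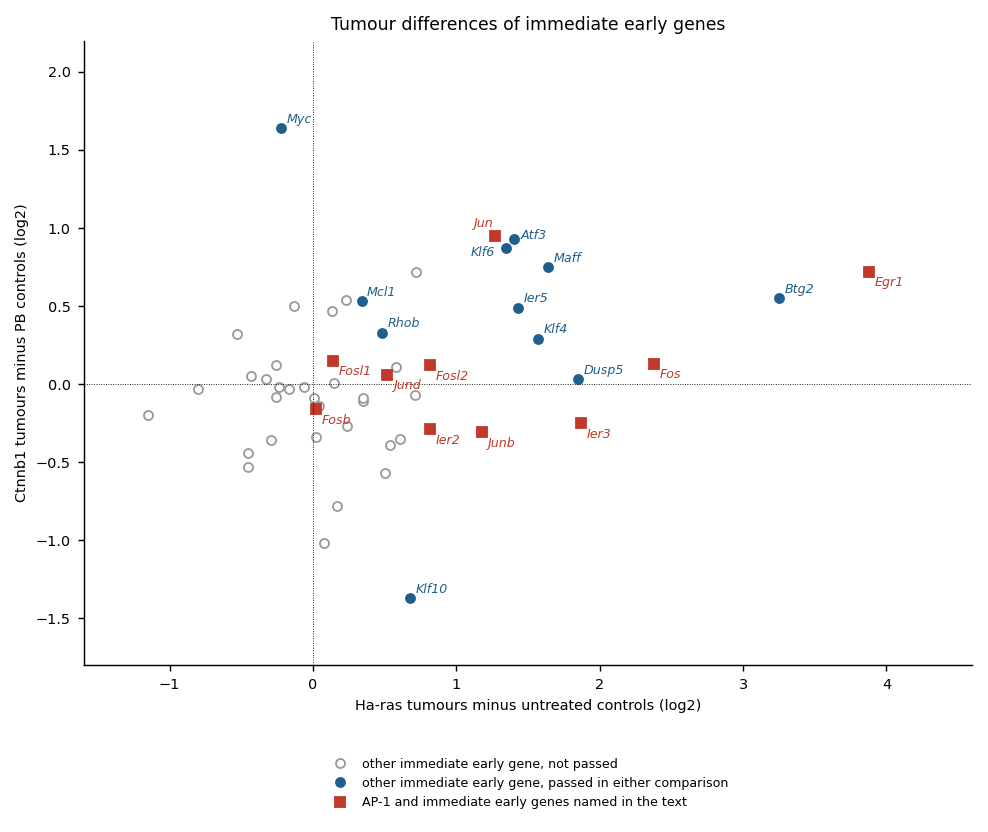
Log2 differences of the 42 other immediate early genes (circles, filled and named where the gene passed in either comparison) and of the 10 genes (squares) in Ha-ras tumours against untreated controls (x axis) and Ctnnb1 tumours against phenobarbital controls (y axis). Egr1, Btg2 and Fos lie far to the right with y values under 1, while Myc is at 1.64 and Klf10 at −1.37 on the y axis.

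Of 14 measured genes for other leucine zipper proteins, most of which can pair with Fos or Jun, 4 rose and 1 fell in Ha-ras tumours. Of all genes, 7.21% rose and 6.33% fell in Ha-ras tumours, and 6.07% rose and 5.97% fell in Ctnnb1 tumours. In Ctnnb1 tumours 0 of the 14 passed in limma, and at an unadjusted p under 0.05, 2 were higher and 1 lower. Without phenobarbital control 6, 1 of the 14 fell in Ctnnb1 tumours and 0 rose. In Ha-ras tumours, besides Maff, Atf3, a stress-induced repressor (1.40 ± 0.35), and Atf4, the factor of the integrated stress response (0.70 ± 0.18), rose. Mafg, another small Maf protein, fell there by 0.92 on the log2 scale. The difference between the effects passed for 1 of the 14, Mafg (1.24), where 389 of all 18193 genes passed as higher. The difference in counts itself was not tested. Maff and Atf3 are also among the 42 genes above.

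Upstream, 13 transcription factors and JNK pathway genes were measured. In each tumour type 1 rose, near the shares of all genes that rose, 7.21% in Ha-ras and 6.07% in Ctnnb1 tumours. In Ha-ras tumours the gene was Map3k1, the MEKK1 kinase above JNK (0.91 ± 0.16), and in Ctnnb1 tumours Mapk8, which encodes JNK1 (0.45). Mapk8 was at 0.31 and did not pass without phenobarbital control 6 (adjusted p = 0.193, limma). Of 7 genes for turnover or repression of these proteins, 3 rose and 1 fell in Ha-ras tumours, and 2 fell in Ctnnb1 tumours. The shares of all genes that fell were 6.33% in Ha-ras and 5.97% in Ctnnb1 tumours. Nab2, a corepressor of Egr1 that Egr1 itself induces and that is also counted among the targets below, rose by 0.80 in Ha-ras tumours and fell by 0.57 in Ctnnb1 tumours, with an interaction of −1.36. Without phenobarbital control 6 the difference of Nab2 in Ctnnb1 tumours was −0.32 and did not pass (adjusted p = 0.217, limma), while the interaction was −1.11 and passed (adjusted p = 0.00474, limma). It was at 7.09 ± 0.17 in Ha-ras tumours, 6.3 ± 0.09 in untreated controls, 5.77 ± 0.21 in Ctnnb1 tumours and 6.33 ± 0.44 in phenobarbital controls. Det1 (1.0) and Fbxw7 (0.54), parts of ubiquitin ligases that act on Jun, rose in Ha-ras tumours. Itch, a ligase of Jun and Junb, fell in both, by 0.51 in Ha-ras and by 0.55 in Ctnnb1 tumours, and without phenobarbital control 6 the latter was −0.40 and did not pass (adjusted p = 0.0874, limma). So 0 of these 7 genes passed in Ctnnb1 tumours without that array.

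Of 22 measured genes known as AP-1 or Egr1 targets, 6 rose and 0 fell in Ha-ras tumours with a median of 0.38. In Ctnnb1 tumours 3 rose and 1 fell, with a median of 0.27. Among all genes, 7.21% rose and 6.33% fell in Ha-ras tumours, and 6.07% and 5.97% in Ctnnb1 tumours. In Ha-ras tumours the largest were Ccnd1, the cyclin D1 gene (2.43 ± 0.49), Mmp13, a collagenase with an AP-1 site in its promoter (1.97 ± 0.40), Cdkn1a, which encodes p21 (1.95 ± 0.39), and Mmp12, a macrophage elastase (1.76 ± 0.46). In Ctnnb1 tumours they were Mmp13 (1.79 ± 0.34), Pdgfa, a growth factor chain (1.05 ± 0.21), Sqstm1, the p62 autophagy receptor (0.68 ± 0.20), and Nab2. Pdgfa also rose in Ha-ras tumours (0.96 ± 0.24, adjusted p = 0.0148, limma), and its interaction of 0.09 did not pass. Sqstm1 was at 0.35 and did not pass without phenobarbital control 6 (adjusted p = 0.274, limma), while Mmp13 (1.69) and Pdgfa (1.31) did. In that fit, 7 of the 22 rose and 1 fell in Ha-ras tumours, and 3 rose and 0 fell in Ctnnb1 tumours. Mmp13 was also the single gene of the list that rose with phenobarbital alone (2.37 ± 0.40, adjusted p = 0.0315, limma), with 4 ± 0.13 in untreated controls, 6.37 ± 0.63 in phenobarbital controls, 5.97 ± 0.74 in Ha-ras tumours and 8.16 ± 0.53 in Ctnnb1 tumours. Its rise with phenobarbital was 2.47 without phenobarbital control 6 and did not pass (adjusted p = 0.0864, limma). Of 9 heat shock genes, which stress of the tissue can induce along with early genes, 0 passed in either tumour-against-control comparison in limma and 0 had an unadjusted p under 0.05, with medians of −0.05 in Ha-ras and 0.03 in Ctnnb1 tumours. Between the tumour types, 4 of the 9 were higher in Ctnnb1 tumours and none lower, where 7.21% and 7.90% of all genes were. With phenobarbital alone 0 of the 9 passed in limma, with a median of 0.45. At an unadjusted p under 0.05, 5 were higher and 0 lower there in limma. The tumour types also differ in phenobarbital, and the part of these genes in the direct comparison was not tested.

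In bulk tissue, fewer cells of a type and less RNA per cell cannot be told apart. Marker lists for other liver cells were set beside the results. No marker of the 7 lists rose in either tumour-against-control comparison in limma, though when phenobarbital control 6 was left out, 2 endothelial markers and 1 hepatocyte marker passed as higher in Ha-ras tumours. That array is in neither group of the Ha-ras comparison and acts there only through the spread shared by all groups. Of all genes, 6.33% fell in Ha-ras and 5.97% in Ctnnb1 tumours. Of 8 macrophage markers, 3 fell in Ha-ras tumours (Clec4f, Vsig4 and Cd5l) and 1 in Ctnnb1 tumours (Clec4f), with array means of 6.96 to 9.26 in Ha-ras tumours, 8.83 to 9.73 in untreated controls, 8.17 to 9.13 in Ctnnb1 tumours and 8.83 to 9.58 in phenobarbital controls. Of 7 stellate cell and fibroblast markers, 3 fell in each tumour type, with array means of 7.58 to 8.21 against 8.26 to 8.78 for Ha-ras and 7.18 to 8.31 against 8.31 to 8.63 for Ctnnb1. Of 7 endothelial markers, none passed in either comparison, and at an unadjusted p under 0.05, 3 were higher and 2 lower in Ha-ras tumours, and 1 was higher and 3 lower in Ctnnb1 tumours. All 5 bile duct and all 6 lymphocyte markers lay below the median gene, and 4 neutrophil markers had array means of 5.85 to 6.20 in Ha-ras tumours, 6.11 to 6.38 in untreated controls, 5.47 to 7.31 in Ctnnb1 tumours and 5.52 to 6.08 in phenobarbital controls. Krt7, of the bile duct list, and Serpina1c, of the hepatocyte list, fell in Ctnnb1 tumours (−0.61 and −0.31), and neither passed without phenobarbital control 6. The bile duct marker Sox9 was lower in Ctnnb1 than in Ha-ras tumours (−0.75), with an interaction of −0.87 that passed in the same direction as those of the 5 genes above. Between the tumour types, the macrophage marker Cd68 was higher in Ctnnb1 tumours by 1.85 on the log2 scale and the hepatocyte marker Fgb lower (−0.70). The part of these cell types in the values of the 10 genes was not tested.

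Across the 16 arrays, the gene most like Egr1 by Pearson r was Fam3c (0.977), followed by Cdkn2a (0.977) and Psrc1 (0.969). For Fos the closest were Egr1 itself (0.965), F11r (0.952) and Fam3c (0.949), and for Junb they were Mtcl1 (0.932), Glis3 (0.93) and Tspan2 (0.92). Ier2 was most like Ptpre (0.954), Rassf3 (0.954) and Rasgrp2 (0.949), Ier3 most like Ago2 (0.914), Spred1 (0.893) and Igsf8 (0.886), and Fosl2 most like Ep300 (0.875), Slc35g1 (0.865) and Anxa4 (0.857). For Egr1, Fos, Junb and Ier2 the 3 Ha-ras tumours lie apart from all other arrays, so their values run over separated groups of arrays. For Ier3 the lowest Ha-ras tumour, at 7.5, lies next to phenobarbital control 6, at 7.48. All these correlations are a description and carry no test.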

How the data were processed

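Liver RNA of 16 samples was measured on Affymetrix arrays. The authors deposited 1 table of log2 intensities for 45101 probe sets, made with RMA (background correction, quantile normalization and summary of probes) in R 2.14.1 per the submitters' processing notes. RMA forces similar distributions on all arrays, which would hide a shift of all genes. Genes were named from the platform annotation and RefSeq (GRCm38.p6): 34945 probe sets had 1 symbol, 932 several and 9160 none, and those with several or none were left out. For each of 18193 genes the brightest probe set was used. limma 3.58.1 in R 4.3.3 fitted 1 mean per group over all 16 arrays, with 5 contrasts, eBayes and Benjamini-Hochberg adjustment over all genes at 0.05, and was tested on simulated data. Statmod 1.5.0 served the random block. The interaction is the Ctnnb1 effect minus the Ha-ras effect, each against its own controls.

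The 10 genes and the other lists were chosen with earlier results of these data known. Beyond the 10 genes, up to 4 passing genes of each list were named per comparison by size of difference, with the 3 most alike genes of each gene that passed, and the motifs TGACG, TGACATCA and TATAAA were chosen after reading the windows. Klf6 and Pdgfa, named so for Ctnnb1 tumours, are also given for Ha-ras tumours. Alternatives covered scaling, probe sets, dim genes, variance model, array weights, RNA quality, blocks, a fold minimum of 2 and left-out arrays. The other lists were refitted without phenobarbital control 6, a choice made after seeing the data. Listed genes without a single-symbol probe set were not analysed here.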

Additional observations from a re-analysis of the deposited data

Results flagged for a closer look

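Egr1 in Ctnnb1 tumour 6 was at 9.58, far from the other 6 tumours, whose highest value was 8.9. The gap divided by the group's range was 0.803, above the critical value of 0.568 for 7 samples, a limit that chance alone passes in a small share of groups. The same tumour was above its group mean for 8 of the 10 genes.

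The effect against the matching controls differed between Ctnnb1 and Ha-ras tumours for 5 genes in the limma interaction test. The log2 difference of effects was −3.16 for Egr1, −2.26 for Fos, −2.11 for Ier3, −1.50 for Junb and −1.11 for Ier2. For Ier3 and Junb the phenobarbital control with the large Gapdh gap was the highest of its group.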

How the results depend on the processing

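The number of genes that passed in Ctnnb1 tumours against phenobarbital controls went from 1 to 0 with the Gapdh gap as a covariate, with array weights, with a 2-fold minimum, with only the arrays compared, with quantile normalization, and without phenobarbital control 6 and Ctnnb1 tumours 6 and 7. With 1 array left out it was 0 to 1. With phenobarbital alone the count went from 0 to 1 with array weights (Jund, 0.77, adjusted p = 0.0319, limma), and it was 0 to 1 with 1 array left out. The counts were 4 to 8 in Ha-ras tumours (6 to 8 with 1 array left out), 5 to 6 in the interaction and 5 to 6 between tumour types (4 to 6 with 1 array left out). Fosl2 in Ha-ras tumours changed sign on its other probe set (−0.35) and was 0.23 as the mean of its probe sets (adjusted p = 0.255, limma). The cause was not tested.

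Of 1390 single-gene values under alternatives, 1337 stayed on their side of the threshold, 18 lost the call, 34 gained it and 1 changed sign in a called result. Of those 1337, 41 had another sign than the reported value with neither past the threshold, at −0.15 to 0.34. Jund in Ha-ras tumours also gained the call with only the arrays compared (adjusted p = 0.0425, limma).

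The labels do not say whether equal replicate numbers mark the same animal, and samples were not paired in the main fit. Correlations of deviations between tumour and control of equal number were 0.13, 0.09 and −0.12 for Ctnnb1 numbers 4, 5 and 6. For Ha-ras numbers 1, 2 and 3 they were 0.03, 0.4 and 0.24. These few values do not settle whether the samples are paired. With a fixed replicate block, 1 gene passed in Ctnnb1 tumours (Jun, 1.23, adjusted p = 0.0303, limma, in place of Egr1, 0.84, adjusted p = 0.115), 8 in Ha-ras tumours and 5 in the interaction. The other comparisons could not be fitted with it. A random replicate block (correlation 0.0465) gave 1, 7, 5, 0 and 5.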
